A study of Mus musculus with 1152 samples.

Results

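Sparc, Timp2, Serpine2 and Olfml3 are 4 genes for secreted proteins of the extracellular matrix and its proteases, out of 48587 genes counted in single microglia of mice with and without amyloid pathology. The 4 genes were grouped with earlier results of these same data known, and were chosen by their measured levels in the 6 groups of genotype and region. Their differences between groups are therefore a description, and adjusted p-values are given as they came from a fit across all genes, without serving as evidence for the choice. All 4 rows were found in the count table and all 4 passed the filter on low counts, as did 17358 genes in all.

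The groups were 5xFAD hippocampus (154 cells of 3 mice), 5xFAD cerebellum (193 cells of 3 mice), 5xFAD cortex (183 cells of 4 mice), WT hippocampus (182 cells of 4 mice), WT cerebellum (162 cells of 4 mice) and WT cortex (167 cells of 4 mice). The labels give the strain C57BL/6J for both genotypes, and neither the age nor the sex of the mice is given in the sources used here. 5xFAD is a transgenic line that makes mutant human APP in neurons, under the Thy1 promoter, and forms amyloid plaques. Microglia were stained for CD11b, CD45, Ly6C, Ly6G and CD206, sorted singly into plates and sequenced with Smart-seq2, which reads along the transcript and has no molecular identifiers. The replicate number in the label is taken as the mouse here. The design text gives replicate mice and says that they supplied all regions, but no label states that a number marks the same mouse in each region. Of the 3 plates, 1 held 5xFAD hippocampus and cerebellum, another 5xFAD cortex and WT cerebellum, and the last WT hippocampus and cortex, so in every region genotype and plate cannot be told apart.

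Matricellular proteins sit in the matrix without being structural fibres, and change how cells attach to it. Sparc is a collagen-binding matricellular glycoprotein, and Olfml3 is a secreted olfactomedin-domain protein that mouse microglia are known to express. Matrix is cut by proteases that their inhibitors hold in check: Timp2 inhibits matrix metalloproteinases and takes part in the activation of pro-MMP2 at the cell surface, and Serpine2 (protease nexin-1) is a serpin that traps thrombin, urokinase and plasmin, with the complexes cleared through receptors of the LRP family. Microglia near amyloid plaques are known to switch on a set of disease-associated genes, among them Cst7, Lpl, Clec7a and Itgax.

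In GRCm38 all 4 are protein-coding genes on the minus strand. Serpine2 lies on chromosome 1 (79794197 to 79861180), Timp2 (118301069 to 118355740) and Sparc (55394500 to 55423183) lie far apart on chromosome 11, and Olfml3 lies on chromosome 3 (103722222 to 103738001). Cep295nl is nested inside Timp2 on the same strand and was not analysed here; no other annotated gene overlaps a member. The 300 bases around the RefSeq start, most of them upstream, are shown for 3 of them: Serpine2 and Timp2, which had their highest level in the same group, and Sparc, which did not. Capitals mark the GC box GGGCGG on either strand, the binding motif of the Sp1 family. Sequences are from RefSeq on GRCm38.p6, in the direction of transcription, at chr1:79858616-79858915, chr11:118355362-118355661 and chr11:55420031-55420330.
Serpine2: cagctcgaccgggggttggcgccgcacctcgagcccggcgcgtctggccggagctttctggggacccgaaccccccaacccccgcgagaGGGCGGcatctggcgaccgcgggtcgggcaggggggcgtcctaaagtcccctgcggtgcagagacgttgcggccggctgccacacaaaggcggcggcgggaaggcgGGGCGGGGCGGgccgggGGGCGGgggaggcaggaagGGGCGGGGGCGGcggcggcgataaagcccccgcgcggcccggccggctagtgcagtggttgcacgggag
Timp2: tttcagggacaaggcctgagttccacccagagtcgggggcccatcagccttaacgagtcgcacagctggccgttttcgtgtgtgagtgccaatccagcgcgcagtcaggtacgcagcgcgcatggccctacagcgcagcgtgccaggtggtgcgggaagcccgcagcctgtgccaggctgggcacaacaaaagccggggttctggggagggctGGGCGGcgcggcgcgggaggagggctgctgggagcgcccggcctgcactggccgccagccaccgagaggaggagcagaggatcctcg
Sparc: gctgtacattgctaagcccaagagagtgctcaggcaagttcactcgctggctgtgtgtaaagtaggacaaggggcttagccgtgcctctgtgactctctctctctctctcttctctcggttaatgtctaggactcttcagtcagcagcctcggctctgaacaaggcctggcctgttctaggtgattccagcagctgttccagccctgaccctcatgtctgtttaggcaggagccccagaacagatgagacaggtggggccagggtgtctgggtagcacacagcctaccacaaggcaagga

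The 3 windows differ in base composition. Serpine2 has 77.7% G and C, 41 CpG and 6 GC boxes, Timp2 68.7%, 25 CpG and 1 GC box, and Sparc 55.3%, 4 CpG and 0 GC boxes. The Olfml3 window, not printed, has 58% G and C and 3 GC boxes. Over the 27025 promoters of the same length the median is 52.7% G and C, and 35.9% hold a GC box, a motif that itself contains a CpG. The ETS core GAGGAA, the core read by PU.1, and the TATA box TATAAA were searched on both strands too and occur in 0 of the 4 windows, against 28.3% and 14.2% of all promoters. These are matches of letters in 1 window, not binding sites.

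Summed over the cells of a mouse, the libraries held 5696201 to 26669220 gene reads from 35 to 72 cells. Of 10 microglia markers, Tmem119, P2ry12, Cx3cr1 and C1qa were read in 95.1% or more of the cells in each group, Siglech, P2ry13 and Gpr34 in at least 90.7%, Sall1 in 77.2 to 90.7% and Fcrls in 75.9 to 98.4%, and the border macrophage marker Mrc1 in 2.20 to 9.84%. In 21 of the 1041 cells a marker list of another cell type held more reads than the microglia list, 8 of them in 5xFAD cerebellum, where neutrophil markers summed to between 473 and 7390 CPM (read counts scaled to library size) per mouse, against 445 to 720 CPM in WT cerebellum. The 12 blank wells had 3109 to 8422 gene reads each. They held 3 reads of Serpine2, 1 of Timp2, 2 of Sparc and 6 of Olfml3 in all. Levels below are CPM of the summed reads on the TMM scale, so a cell with more reads weighs more.

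Serpine2 and Timp2, the protease inhibitors, were highest in 5xFAD hippocampus. Serpine2 rose there, to 2.47 times the WT hippocampus level, and Timp2 had 1.74 times the WT level without passing the test. Sparc followed the region: it was lower in the cerebellum than in the hippocampus in both genotypes. Olfml3 was the most even of the 4 across regions in 5xFAD mice, and Serpine2 was in WT mice. Olfml3 passed no comparison.

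**Figure D1:**
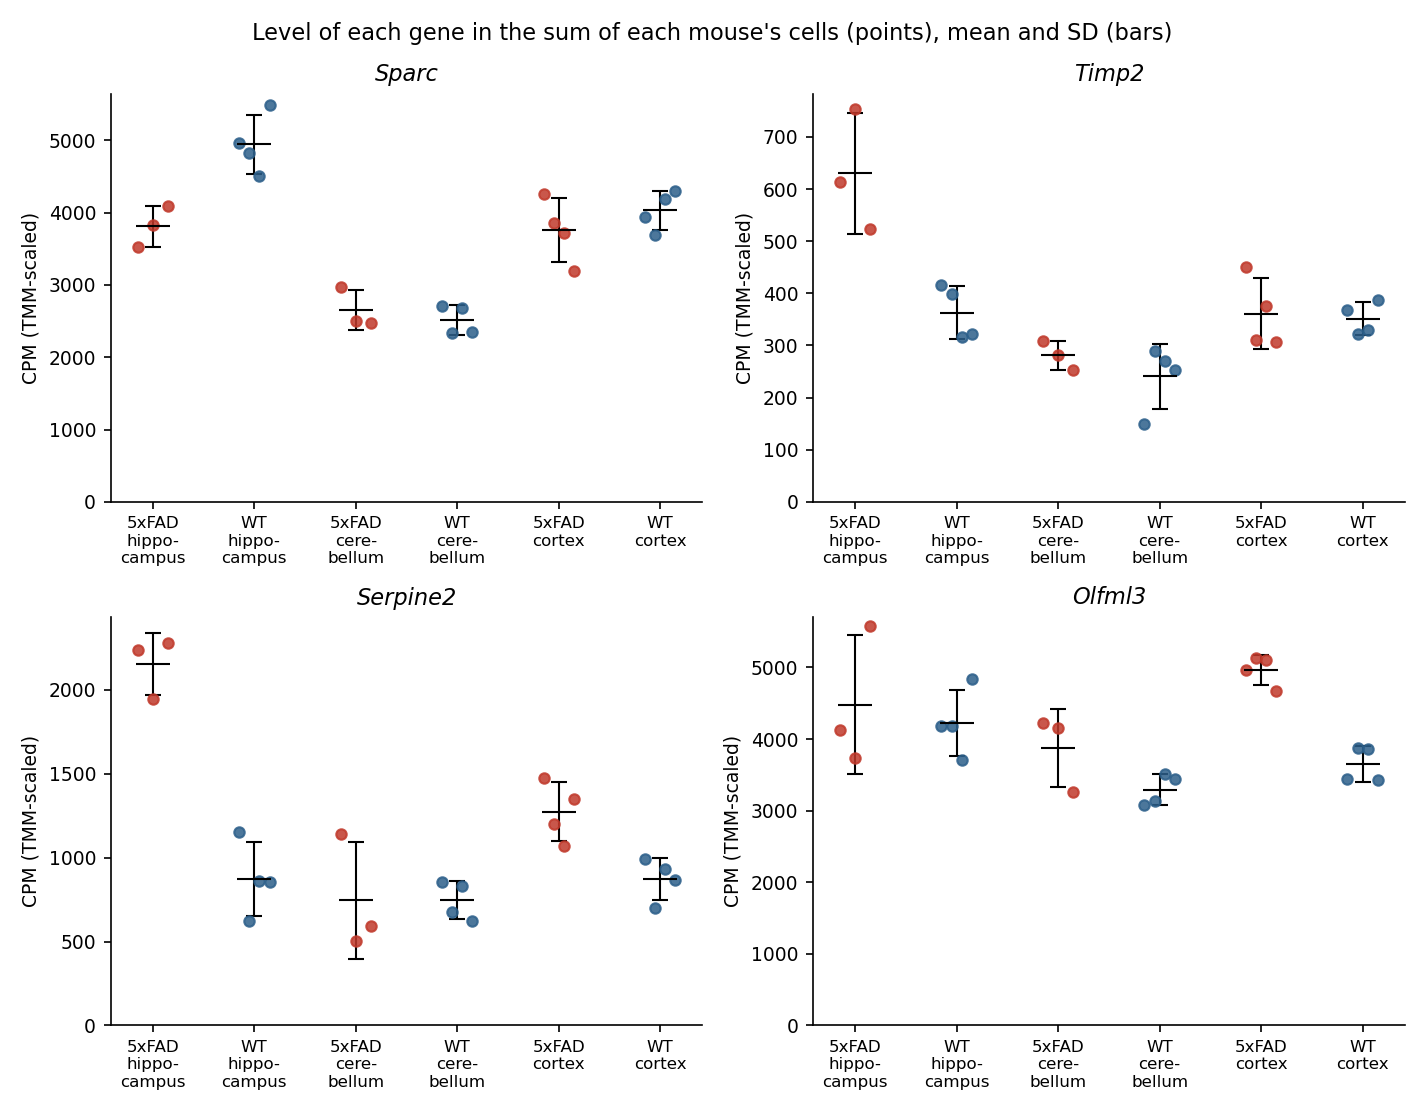
Level of Sparc, Timp2, Serpine2 and Olfml3 (CPM of the summed reads, TMM-scaled, linear axis from 0) in each mouse, by genotype and region, with mean and SD as bars. Serpine2 in the 3 mice of 5xFAD hippocampus lies between 1944 and 2281 CPM, above all other libraries, while Sparc separates the cerebellum from the other regions.

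Serpine2 had 2238, 1944 and 2281 CPM in 5xFAD hippocampus, against 1154, 621, 863 and 855 CPM in WT hippocampus. The 2 groups did not overlap, and every 5xFAD mouse was above every WT mouse. In edgeR's quasi-likelihood test with Benjamini-Hochberg adjustment over all 17358 genes the log2 fold change was 1.30 ± 0.22 (SE, adjusted p = 0.00225). This difference passed in all 15 alternatives, with log2 values from 1.17 to 1.95.

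In cortex the Serpine2 levels were 1473, 1203, 1068 and 1352 CPM in 5xFAD mice and 993, 698, 932 and 868 CPM in WT mice. These groups did not overlap either, by a smaller margin. The log2 fold change was 0.55 ± 0.21 (SE, edgeR adjusted p = 0.392), and it passed with no filter on low counts (adjusted p = 0.0191) and with limma on cell means (0.044). In cerebellum Serpine2 had 1144, 501 and 594 CPM in 5xFAD mice, against 858, 679, 831 and 623 CPM in WT mice. The 5xFAD mice lay on both sides of the WT range here, and the means were 746 ± 347 CPM (SD, n = 3) in 5xFAD and 747 ± 115 CPM (SD, n = 4) in WT. The genotype difference in hippocampus exceeded that in cerebellum by a log2 value of 1.31 ± 0.32 (SE, edgeR interaction term, adjusted p = 0.0977). It passed with the mouse as a replicate block (adjusted p = 0.0173), with DESeq2 (0.00231), with no filter on low counts (3.32e-05) and without 5xFAD cerebellum mouse 1 (0.00297), and ranged up to 0.392 in the other alternatives. The same difference against cortex was 0.76 ± 0.31 (SE, adjusted p = 0.32).

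Within 5xFAD mice, on 1 plate, Serpine2 was higher in hippocampus than in cerebellum by a log2 value of 1.53 ± 0.25 (SE, edgeR adjusted p = 0.00542), a ratio of 2.89, and the groups did not overlap. The call was lost with only these groups in the fit (adjusted p = 0.271) and without 5xFAD cerebellum mouse 2 or mouse 3 (0.0628 and 0.0767). In WT mice the value was 0.22 ± 0.21 (SE, adjusted p = 0.734), across plates. Hippocampus against cortex gave 0.76 ± 0.22 in 5xFAD (SE, adjusted p = 0.594, across plates) and 0.00 ± 0.21 in WT (SE, adjusted p = 1, on 1 plate). Cerebellum against cortex gave -0.77 ± 0.23 in 5xFAD and -0.22 ± 0.21 in WT (SE, adjusted p = 0.566 and 0.775, both across plates). The 5xFAD value passed without 5xFAD cerebellum mouse 1 (log2 value -1.20, adjusted p = 0.0251), with no filter on low counts (0.00626) and with limma on cell means (0.00229).

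Timp2 was the least abundant of the 4. It had 614, 753 and 523 CPM in 5xFAD hippocampus, against 415, 399, 317 and 321 CPM in WT hippocampus. The lowest 5xFAD mouse stood above the highest WT mouse. The log2 fold change was 0.80 ± 0.20 (SE, edgeR adjusted p = 0.0639). It passed in limma-voom with the mouse as a random block (adjusted p = 0.00239) and with DESeq2 (0.00238). In 5xFAD hippocampus mouse 2, the highest library, 1 cell gave 19.6% of the Timp2 reads.

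The genotypes overlapped for Timp2 in the other regions. Cerebellum had 309, 282 and 252 CPM in 5xFAD mice and 149.7, 289.6, 271 and 252 CPM in WT mice, a log2 fold change of 0.22 ± 0.20 (SE, adjusted p = 0.85). WT cerebellum mouse 1 was the lowest library, and 1 cell gave 38.8% of its Timp2 reads. Cortex had 451, 311, 376 and 307 CPM in 5xFAD mice and 369, 322, 329 and 386 CPM in WT mice, with a log2 fold change of 0.04 ± 0.19 (SE, adjusted p = 0.993). The genotype difference in hippocampus exceeded that in cerebellum by 0.57 ± 0.29 and that in cortex by 0.76 ± 0.28 (log2, SE, edgeR adjusted p = 0.462 and 0.27).

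Between regions, Timp2 was higher in hippocampus than in cerebellum of 5xFAD mice by a log2 value of 1.17 ± 0.22 (SE, edgeR adjusted p = 0.0201), a ratio of 2.24, with no overlap of the mice. The log2 value stayed between 1.01 and 1.75 in all 14 alternatives, but the call passed in 4. It was lost with the mouse as a replicate block (adjusted p = 0.075), with only these groups in the fit (0.223), without the wells of plate columns 1 and 2 (0.0929), without the wells with markers of other cells (0.123), with limma on cell means (0.147), and without any of 5xFAD cerebellum mice 1, 2 and 3 and hippocampus mice 1 and 2 (0.055 to 0.207). In WT mice the value was 0.59 ± 0.19 (SE, adjusted p = 0.24) and the mice did not overlap either. Hippocampus against cortex gave 0.80 ± 0.20 in 5xFAD mice, again without overlap, and 0.05 ± 0.19 in WT mice (SE, adjusted p = 0.429 and 1). Cerebellum against cortex gave -0.36 ± 0.21 in 5xFAD mice and -0.55 ± 0.19 in WT mice (SE, adjusted p = 0.634 and 0.32).

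Sparc was among the abundant transcripts of these cells and differed by region. Hippocampus had 3518, 3825 and 4085 CPM in 5xFAD mice, against 4964, 4826, 4505 and 5487 CPM in WT mice. All 3 5xFAD mice were below the lowest WT mouse. The log2 fold change was -0.38 ± 0.10 (SE, edgeR adjusted p = 0.0865). It passed in limma-voom with the mouse as a random block (adjusted p = 0.000863) and with limma on cell means (0.0146). It also passed with DESeq2 (0.0219) and with no filter on low counts (0.0344), and ranged up to 0.39 in the others.

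Cerebellum had 2968, 2504 and 2476 CPM of Sparc in 5xFAD mice and 2707, 2339, 2677 and 2342 CPM in WT mice. The genotypes overlapped, with a log2 fold change of 0.07 ± 0.10 (SE, adjusted p = 0.942). Cortex had 4256, 3861, 3711 and 3189 CPM in 5xFAD mice and 3944, 3689.6, 4189.7 and 4293 CPM in WT mice. There too the groups overlapped, with a log2 fold change of -0.10 ± 0.09 (SE, adjusted p = 0.78). The genotype difference in hippocampus was below that in cerebellum by a log2 value of -0.45 ± 0.14 and below that in cortex by -0.27 ± 0.14 (SE, edgeR adjusted p = 0.264 and 0.457).

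The regional order of Sparc was hippocampus, cortex, cerebellum in WT mice. Hippocampus exceeded cerebellum by 0.98 ± 0.09 (log2, SE, edgeR adjusted p = 2.14e-06), a ratio of 1.97, and cerebellum was below cortex by a log2 value of -0.68 ± 0.09 (SE, adjusted p = 0.000527). Both calls held in all 16 alternatives of each, and both are across plates. WT hippocampus and WT cortex, on 1 plate, differed by 0.30 ± 0.09 (SE, adjusted p = 0.474) with no overlap of the mice. In 5xFAD mice, on 1 plate, hippocampus exceeded cerebellum by 0.52 ± 0.11 (SE, adjusted p = 0.0371), a ratio of 1.44. The 5xFAD call was lost with the replicate block (adjusted p = 0.0606), with only these groups in the fit (0.299), with limma on cell means (0.434) and without any of 5xFAD cerebellum mice 2 and 3 and hippocampus mice 1, 2 and 3 (0.0571 to 0.389). Cerebellum against cortex in 5xFAD mice was -0.50 ± 0.10 (SE, adjusted p = 0.0824), which passed in 4 of 15 alternatives, and hippocampus and cortex differed by 0.02 ± 0.10 (SE, adjusted p = 1).

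Sparc and Serpine2 are also made by astrocytes and Sparc by endothelial cells. The marker sums given next are plain CPM, without the TMM scaling of the gene levels. The 6 astrocyte markers summed to 156 to 196 CPM per mouse in 5xFAD hippocampus and 213 to 263 CPM in WT hippocampus, with 0 of the 6 undetected in either group. Endothelial markers summed to 11.7 to 56.0 CPM in 5xFAD hippocampus and 20.2 to 127 CPM in WT hippocampus. On this plain scale astrocyte sums were lower in 5xFAD than in WT hippocampus without overlap. TMM scaling raised the 5xFAD hippocampus levels, as for Sparc in mouse 3 from 3762 to 4085 CPM, so these groups need not stay apart on it. The part of either list in the Sparc or Serpine2 levels was not tested. Without the wells led by markers of other cells, Serpine2 in 5xFAD against WT hippocampus gave 1.33 on the log2 scale, and Sparc in hippocampus against cerebellum of WT mice gave 0.95.

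Olfml3 had 4124, 3732 and 5580 CPM in 5xFAD hippocampus, against 4187, 4184, 3704 and 4835 CPM in WT hippocampus. The 5xFAD mice spread over and beyond the WT range, and the log2 fold change was 0.08 ± 0.12 (SE, edgeR adjusted p = 0.882). In cerebellum it had 4229, 4148 and 3255 CPM in 5xFAD mice and 3073, 3141, 3511 and 3440.1 CPM in WT mice. The log2 fold change of 0.24 ± 0.12 (SE, adjusted p = 0.556) came with 5xFAD mouse 3 inside the WT range.

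The cortex was where Olfml3 differed most by genotype. It had 4965, 5126, 5102 and 4667 CPM in 5xFAD mice, against 3438, 3877, 3862 and 3430.2 CPM in WT mice, with no overlap. The log2 fold change was 0.44 ± 0.11 (SE, edgeR adjusted p = 0.098), a ratio of 1.36. It passed with limma on cell means (adjusted p = 0.00155), with DESeq2 (0.0233), with only these groups in the fit (0.0345) and with no filter on low counts (1.41e-05), and ranged up to 0.693 in the others. The genotype difference in hippocampus was below that in cortex by a log2 value of -0.36 ± 0.16 and below that in cerebellum by -0.15 ± 0.17 (SE, adjusted p = 0.383 and 0.844). Hippocampus against cerebellum gave 0.21 ± 0.13 in 5xFAD mice and 0.36 ± 0.11 in WT mice (SE, adjusted p = 0.688 and 0.209). Hippocampus against cortex gave -0.15 ± 0.12 and 0.21 ± 0.11, and cerebellum against cortex -0.36 ± 0.12 and -0.15 ± 0.11, in 5xFAD and in WT mice in that order (SE, adjusted p = 0.853, 0.495, 0.605 and 0.653).

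**Figure D2:**
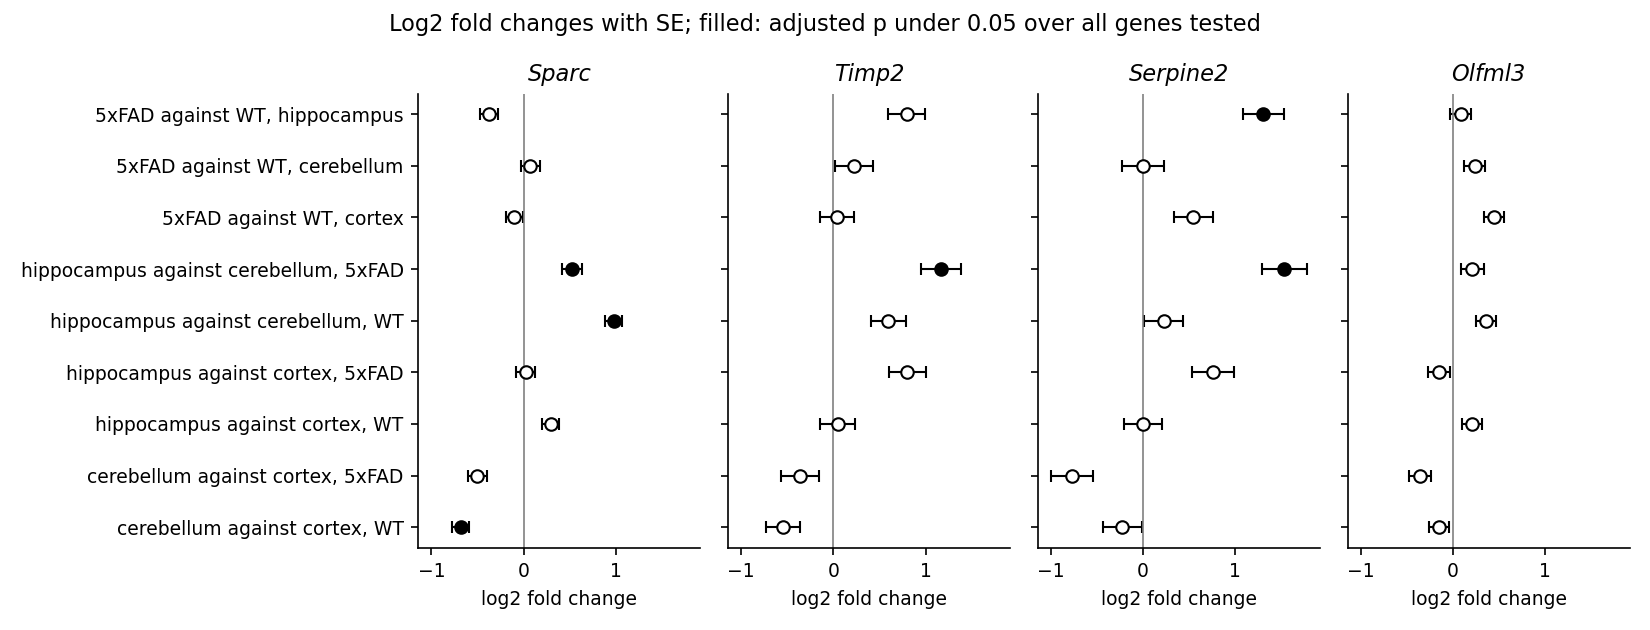
Log2 fold change with SE of each gene in the genotype comparison of every region and in the comparisons between regions of each genotype (edgeR, all 22 libraries). Filled points have an adjusted p under 0.05 over all genes tested: Serpine2 in 5xFAD against WT hippocampus, Sparc, Timp2 and Serpine2 in hippocampus against cerebellum of 5xFAD mice, and Sparc in both comparisons of the WT cerebellum.

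The members' counts stand beside the background of all genes. In 5xFAD against WT, 1 of 4 passed in hippocampus, where 1.01% of 17358 genes passed, 0 of 4 in cerebellum (0.0461%) and 0 of 4 in cortex (0.294%). In hippocampus against cerebellum 3 of 4 passed in 5xFAD mice (0.219%) and 1 of 4 in WT mice (0.374%), and in cerebellum against cortex 0 of 4 in 5xFAD mice (0.0576%) and 1 of 4 in WT mice (0.277%). In hippocampus against cortex 0 of 4 passed in 5xFAD mice (0.0346%) and in WT mice (0%), where edgeR called 0 genes, 1827 had an unadjusted p under 0.05 and DESeq2 called 301. In the interaction terms 0 of 4 passed for hippocampus minus cerebellum (0.3%) and for hippocampus minus cortex (0.0461%). Mice of the groups did not overlap for 3 members in hippocampus by genotype, where 11% of genes did not, for 0 in cerebellum (6.56%) and for 2 in cortex (5.71%). Between hippocampus and cerebellum they did not overlap for 3 members in 5xFAD mice (13.1% of genes) and for 3 in WT mice (4.96%). The share of all genes was not taken for hippocampus against cortex, so the lack of overlap given there for Timp2 and Sparc has no background beside it. The members were chosen on these contrasts, so nothing is read from the counts. The comparisons share groups: each genotype difference and each regional difference of a group uses the same libraries.

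More cells than not had a read of each gene in every group, apart from Timp2 in WT cerebellum, which stood near even at 51.2% (43.3 to 59.2). Serpine2 was read in 94.8% of 5xFAD hippocampus cells (exact 95% interval 90.0 to 97.7) and 79.1% of WT hippocampus cells (72.5 to 84.8), and in single mice the shares were 93.1 to 96% and 71.1 to 88.6%. In cortex the Serpine2 shares were 92.9% of 5xFAD cells (88.2 to 96.2) and 82.0% of WT cells (75.4 to 87.5). In cerebellum they were 73.6% of 5xFAD cells (66.8 to 79.6) and 71.6% of WT cells (64.0 to 78.4). Of the 12 blank wells, 3 had a Serpine2 read and none had more than 1.

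Timp2 was read in 87.0% of 5xFAD hippocampus cells (80.7 to 91.9) and 70.3% of WT hippocampus cells (63.1 to 76.9). The cerebellum had 69.4% of 5xFAD cells (62.4 to 75.8) and 51.2% of WT cells (43.3 to 59.2), and the shares of single mice, 64.4 to 74.2% in 5xFAD and 46.7 to 57.5% in WT, did not overlap, although the summed levels did. The cortex had 76.5% of 5xFAD cells (69.7 to 82.4) and 66.5% of WT cells (58.8 to 73.6). Of the 12 blanks 1 had a Timp2 read. Sparc was read in 88.9 to 99.5% and Olfml3 in 95.1 to 99.5% of the cells of a group, against 2 and 4 of 12 blanks. The lowest Sparc shares were those of the cerebellum, 92.7% of 5xFAD cells (88.1 to 96.0) and 88.9% of WT cells (83.0 to 93.3).

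Median depth was 328896 reads per cell in 5xFAD hippocampus, 343580 in 5xFAD cerebellum and 256681 in 5xFAD cortex, and 235875, 250052 and 198492 in WT hippocampus, cerebellum and cortex. Shares were therefore also taken with every cell thinned to 50000 reads, which left out 19, 6 and 11 cells of 5xFAD and 5, 25 and 34 cells of WT in the same order of regions. Serpine2 was then read in 96.3% of 5xFAD and 78.5% of WT hippocampus cells, in 70.6% of 5xFAD and 75.2% of WT cerebellum cells, and in 94.2% of 5xFAD and 88.7% of WT cortex cells. Thinned Timp2 shares were 84.4% in 5xFAD and 70.6% in WT hippocampus, 67.9% in 5xFAD and 48.2% in WT cerebellum, and 75% in 5xFAD and 72.9% in WT cortex. The Timp2 gap in cerebellum thus had the same size at equal depth, while that in cortex narrowed. With at least 10 reads required, the Serpine2 shares were 86.4% of 5xFAD and 75.3% of WT hippocampus cells and 89.6% of 5xFAD and 73.1% of WT cortex cells, so that 5xFAD cortex then stood above 5xFAD hippocampus. Timp2 shares by that count were 75.3% of 5xFAD and 62.6% of WT hippocampus cells. Intervals cover counting error only: they take the pooled cells of a group as independent and leave out the spread between its mice. For Timp2 in WT cortex single mice ran from 51.1 to 81.0%, beyond the pooled interval of 58.8 to 73.6. Reads without molecular identifiers are also not independent molecules.

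**Figure D3:**
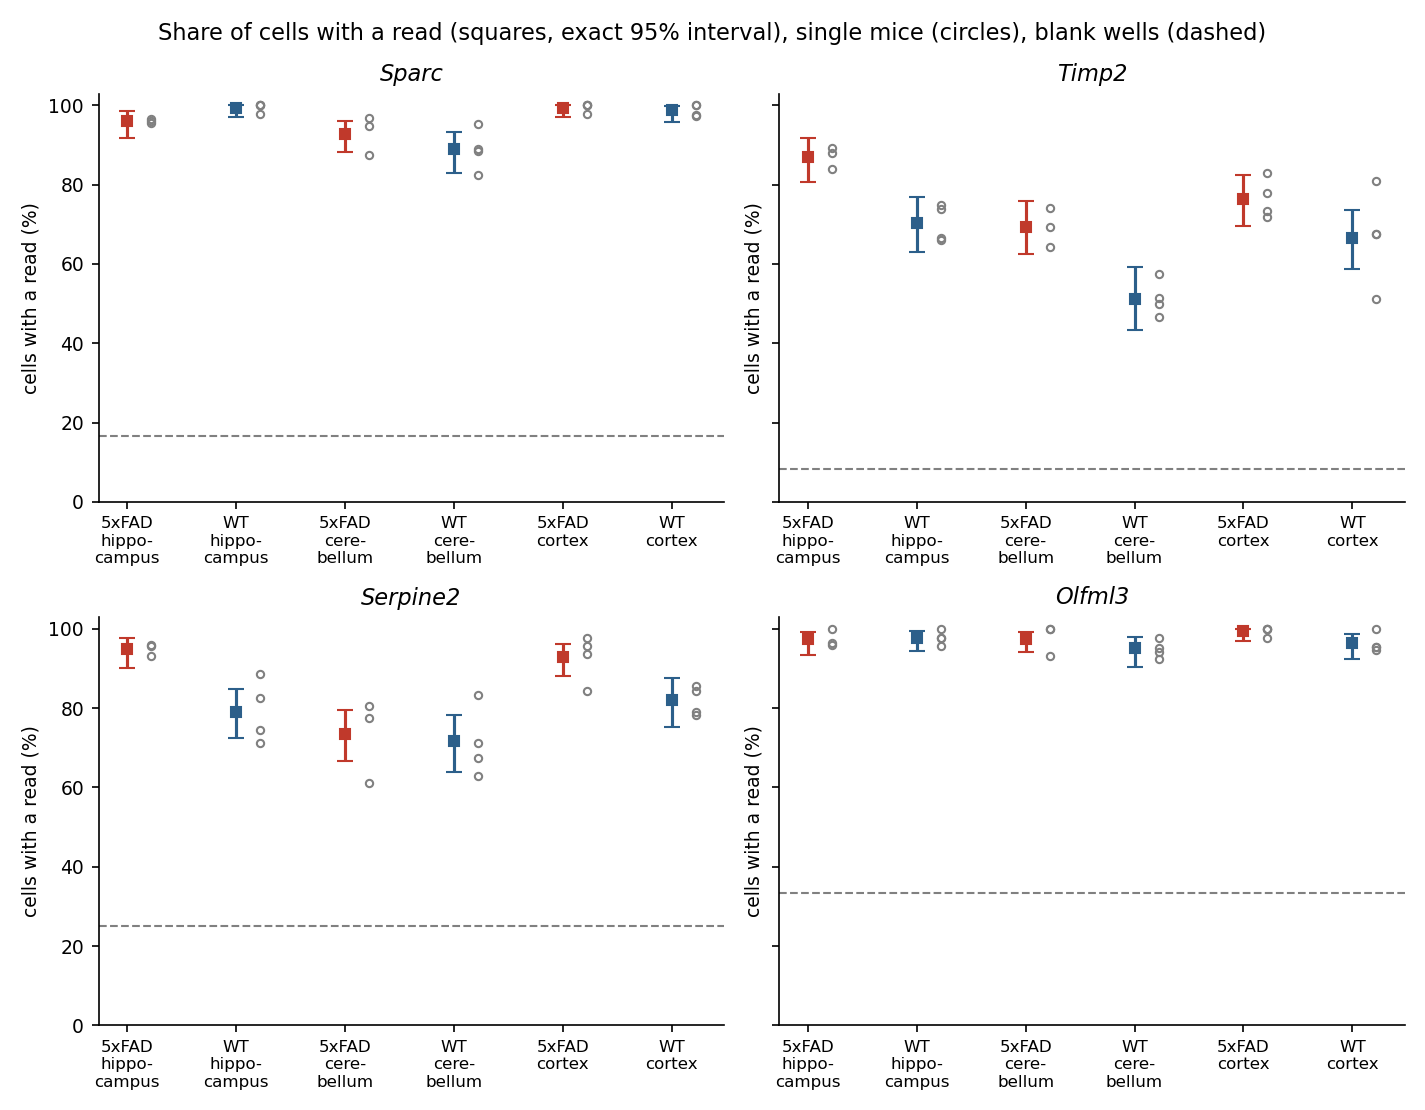
Share of cells with a read of each gene (percent), by genotype and region. Squares are all cells of a group with the exact 95% interval, open circles the single mice, and dashed lines the share of the 12 blank wells with a read. With at least 1 read, Serpine2 and Timp2 vary between groups, from 71.6 to 94.8% and from 51.2 to 87.0%, whereas Olfml3 stays between 95.1 and 99.5%.

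Cells within a group differed widely. In 5xFAD hippocampus the median cell had 1269 CPM of Serpine2 (quartiles 507 and 2500.0), and in WT hippocampus 699 CPM (53.7 and 1417). The 10% of cells with the most Serpine2 reads gave 33.4% of the reads in 5xFAD hippocampus and 27.7% in WT hippocampus. For Timp2 the medians were 364 CPM in 5xFAD hippocampus and 180.1 CPM in WT hippocampus, and the top 10% gave 40.4% and 38.8% of the reads. Timp2 was most uneven in WT cerebellum, where the median cell had 3.45 CPM and the top 10% gave 55.1% of the reads. Sparc and Olfml3 were more even, with 21 to 29.2% of the reads in the top 10% in all groups.

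A panel of 8 disease-associated genes (Cst7, Lpl, Clec7a, Itgax, Axl, Ch25h, Igf1 and Csf1), which holds none of the 4 members and was also picked with earlier results known, split the cells by whether at least 3 were read. Panel-positive cells made up 61.7% of 5xFAD hippocampus (95 cells), 25.4% of 5xFAD cerebellum (49) and 31.1% of 5xFAD cortex (57), against 1.10% of WT hippocampus (2), 7.41% of WT cerebellum (12) and 1.20% of WT cortex (2). The classes are ranges of a count, with 21, 31 and 18 5xFAD cells at exactly 2 panel genes and 19, 22 and 12 at exactly 3. Median depth was 348330 reads in positive and 289273 in negative cells of 5xFAD hippocampus, and 267665 and 256118 in cortex. Levels of the classes have their own TMM scale, taken over the sums of both classes. They compare positive with negative cells and are not on the scale of the group levels above.

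In hippocampus of the 3 5xFAD mice, Serpine2 had 3152, 2579 and 3343 CPM in panel-positive cells, against 1491, 1341 and 1157 CPM in panel-negative cells of the same mice. It was higher in the positive cells of all 3 mice. Timp2 had 813, 1018 and 686 CPM in positive cells and 495, 479.5 and 415 CPM in negative cells, and was likewise higher in 3 of 3. Sparc and Olfml3 went the other way in all 3 mice, with means of 4055 ± 211.2 CPM in positive and 4773 ± 578 CPM in negative cells for Sparc, and 4508 ± 1032 and 6041 ± 1326 CPM for Olfml3 (SD, n = 3). With the mouse as a term, edgeR gave log2 values of 1.21 ± 0.19 for Serpine2, 0.87 ± 0.24 for Timp2, -0.20 ± 0.14 for Sparc and -0.39 ± 0.14 for Olfml3 (SE, adjusted p = 0.294, 0.775, 0.944 and 0.854). Of 10602 genes tested in this fit of 6 libraries, 0 passed (0%), 610 had an unadjusted p under 0.05, and 6 passed without the mouse term.

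In cortex of the 4 5xFAD mice, Serpine2 had 3532, 1995, 1539 and 2249 CPM in positive cells and 1122, 959, 1034 and 1085 CPM in negative cells, higher in 4 of 4. Timp2 was higher in 4 of 4 as well, with means of 586 ± 185 CPM in positive and 327 ± 73.7 CPM in negative cells (SD, n = 4). Sparc was lower in 4 of 4, with means of 3553 ± 380 and 4410.3 ± 560 CPM, and Olfml3 in 3 of 4. The log2 values were 1.10 ± 0.19 for Serpine2, 0.84 ± 0.20 for Timp2, -0.29 ± 0.11 for Sparc and -0.18 ± 0.11 for Olfml3 (SE, edgeR adjusted p = 0.12, 0.297, 0.608 and 0.799), where 0.161% of genes passed. The cerebellum did not share this pattern in every mouse: Serpine2 was higher in the positive cells of 2 of 3 mice, and Timp2, Sparc and Olfml3 of 1 of 3 each. Timp2 had 480, 241 and 252 CPM in positive and 287, 337 and 299 CPM in negative cells of cerebellum mice 1, 2 and 3. For Serpine2, mouse 1 had 2494 CPM in its positive and 709 CPM in its negative cells, mouse 2 had 362 and 617 CPM, and mouse 3 had 769 and 653 CPM. The high Serpine2 total of 5xFAD cerebellum mouse 1 thus came with a high level in its 20 panel-positive cells.

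**Figure D4:**
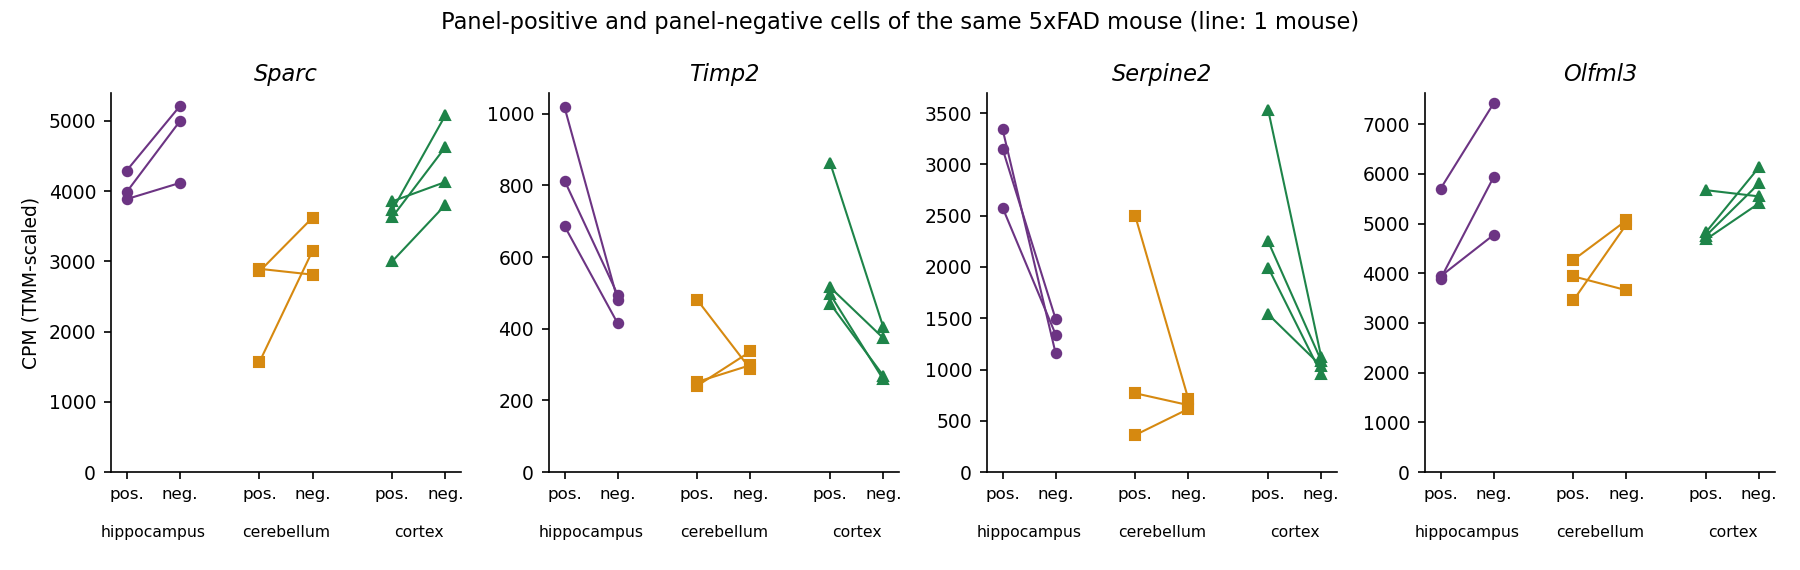
Level of each gene (CPM, TMM-scaled over the sums of both classes, linear axis from 0) in panel-positive (pos.) and panel-negative (neg.) cells of the same 5xFAD mouse, joined by a line, by region. Serpine2 and Timp2 are higher in positive cells in all 3 hippocampus and all 4 cortex mice, while Sparc is lower in them; in cerebellum Serpine2 ranges from 362 to 2494 CPM in positive cells.

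Among panel-negative cells only, the genotype difference of Serpine2 in hippocampus was 0.39 ± 0.17 on the log2 scale (SE, edgeR adjusted p = 0.342), with means of 1169.9 ± 144 CPM in 5xFAD (SD, n = 3) and 892 ± 217 CPM in WT (SD, n = 4). Timp2 had 0.14 ± 0.27, Sparc -0.26 ± 0.11 and Olfml3 0.31 ± 0.12 (SE, adjusted p = 0.895, 0.334 and 0.321), where 0.312% of 16340 genes passed. In cortex Serpine2 had 0.10 ± 0.16, Timp2 -0.27 ± 0.25, Sparc -0.03 ± 0.10 and Olfml3 0.49 ± 0.11 (SE, adjusted p = 1, 0.899, 1 and 0.269), where 0.049% passed. Olfml3 in panel-negative cortex cells averaged 5219 ± 278 CPM in 5xFAD and 3728 ± 206 CPM in WT (SD, n = 4 each), a gap of the same size as that over all cells. The means of this paragraph are TMM-scaled over panel-negative sums alone, so they are not on the scale of the class levels above.

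By number of panel genes read in a cell, Serpine2 stood at 1091 ± 79.1 CPM with 0, 1082 ± 164 with 1 to 2, 1797 ± 133 with 3 to 4 and 2691 ± 464 with 5 to 8 panel genes in 5xFAD hippocampus (SD over 3 mice, plain CPM). In 5xFAD cortex the same steps gave 943 ± 97.8, 964 ± 188, 1498 ± 947 and 2424 ± 415 CPM (SD over 4 mice). In hippocampus the level was flat up to 2 panel genes and higher above. In cortex the mice at 3 to 4 panel genes ran from 524 to 2784 CPM, on both sides of the levels at 0. At 5 to 8 every cortex mouse stood above those levels. In 5xFAD cerebellum the Serpine2 steps were 612 ± 29.2, 572 ± 72.3, 663 ± 444 and 1540.3 ± 1014 CPM (SD over 3 mice), the last over 17 cells. Timp2 had 284 ± 237, 407 ± 98.8, 716 ± 146 and 624 ± 92.5 CPM in hippocampus, and 284 ± 69.7, 273 ± 69.5, 196 ± 60.5 and 266 ± 288 CPM in cerebellum. Olfml3 was lowest at 5 to 8 panel genes in each region, with 3090 ± 990.1 CPM in hippocampus, 2485 ± 908 in cerebellum and 3891 ± 901 in cortex, against 4287 ± 384, 4429 ± 1269 and 5411 ± 519 CPM with 0 panel genes. Sparc at 5 to 8 panel genes had 2882 ± 322 CPM in hippocampus and 2408 ± 510.4 in cortex, against 3926 ± 1054 and 3949 ± 1121 with 0. In cerebellum the Sparc steps were 2889 ± 502, 2842 ± 343, 1684 ± 527 and 3443 ± 798 CPM, lowest at 3 to 4 panel genes.

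**Figure D5:**
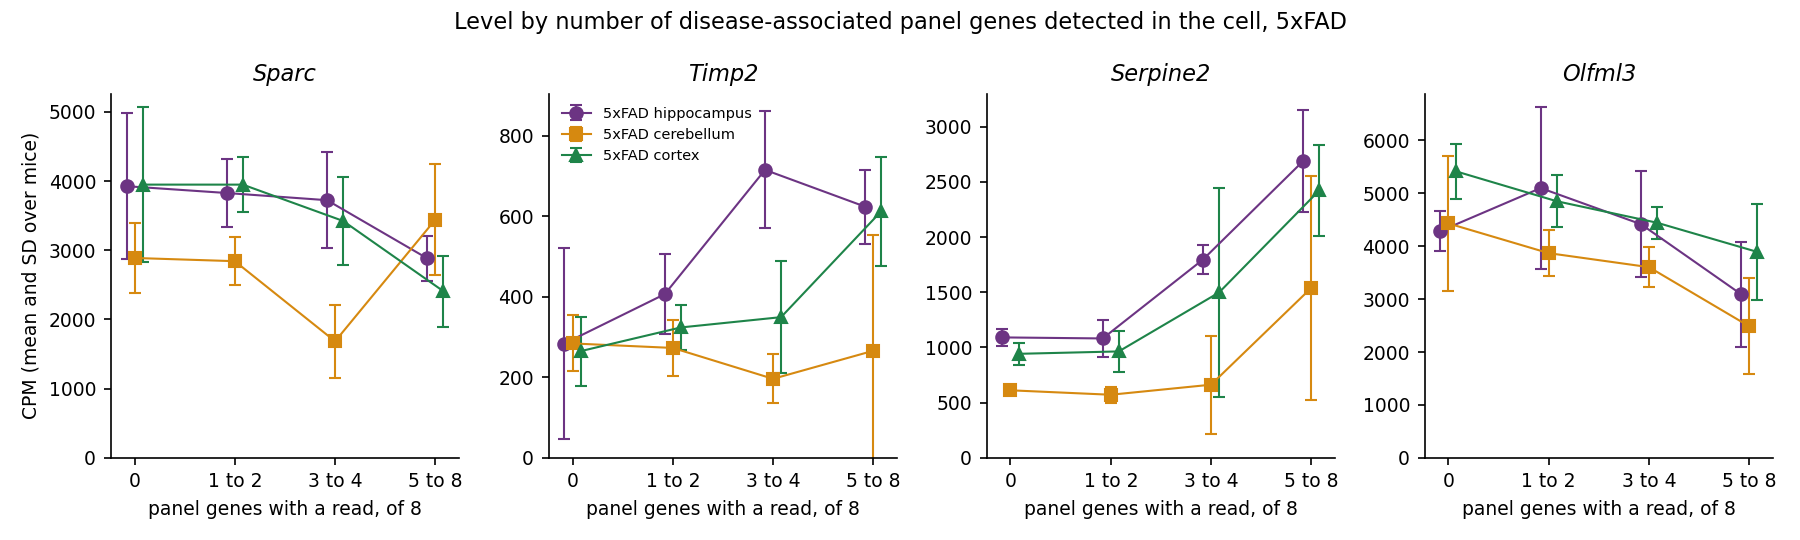
Level of each gene (plain CPM, linear axis from 0, mean and SD over mice) in 5xFAD cells grouped by how many of the 8 panel genes had a read. Serpine2 is flat up to 2 panel genes and reaches 2691 CPM in hippocampus at 5 to 8, while Olfml3 is lowest there; the SD of Timp2 in cerebellum at 5 to 8 reaches below 0 and is cut by the axis.

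Other genes of matrix turnover were taken from lists chosen with earlier results known. Of 27 further TIMPs and metalloproteinases, 21 were tested and 0 passed in any of the genotype comparisons or in hippocampus against cerebellum of 5xFAD mice. Their median log2 fold change in 5xFAD against WT hippocampus was 1.78, beside 0.10 over all genes, mostly over sparsely read genes, and it was 2.05 with genes at 0 in a group set to a bound of 3 reads. The sheddase genes Adam10 (0.31 ± 0.19), Adam15 (0.19 ± 0.19) and Adam17 (-0.02 ± 0.27), the abundant ones, did not pass there (log2, SE, edgeR adjusted p = 0.491, 0.777 and 1). In cortex Adam15 had 0.71 ± 0.18 (SE, edgeR adjusted p = 0.0974), with means of 344 CPM in 5xFAD and 210 CPM in WT. Adam10 had 0.16 and Adam17 0.07 in cortex. Of 28 serpins, serine proteases and their receptors, 18 were tested and 1 passed: Lrp1, a clearance receptor of serpin-protease complexes, rose in 5xFAD cortex by a log2 value of 0.83 ± 0.15 (SE, adjusted p = 0.0102), with a mean of 744 CPM in 5xFAD and 417 CPM in WT. In hippocampus Lrp1 had 0.44 ± 0.16, the protease inhibitor gene Spint1 0.44 ± 0.22 and Pros1, the protein S gene, 0.45 ± 0.18 (SE, adjusted p = 0.297, 0.385 and 0.328). The list's median there was 0.45.

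Of 38 matricellular and matrix proteins 27 were tested, and 2 rose in 5xFAD hippocampus. Lgals3bp, which encodes a galectin-binding glycoprotein, had a mean of 1961 CPM in 5xFAD and 322 CPM in WT hippocampus (log2 2.60 ± 0.33, SE, edgeR adjusted p = 7.61e-05), and it rose in cortex too (1.92 ± 0.31, adjusted p = 0.00346). Spp1, the osteopontin gene, had a mean of 72.2 CPM in 5xFAD hippocampus and no read in WT hippocampus (adjusted p = 0.00227). Tgfbi, a matrix protein induced by TGF-beta, was lower in hippocampus than in cerebellum of 5xFAD mice, with means of 51.6 and 253 CPM (log2 -2.29 ± 0.47, SE, adjusted p = 0.0402). The median of the list was 1.69 in 5xFAD against WT hippocampus and -0.50 in cortex, -0.59 with genes at 0 at their bound, beside 0.10 and -0.09 over all genes.

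Of 19 matrix receptors, all tested, 2 rose and 1 fell in 5xFAD hippocampus. The syndecan gene Sdc3 had 261 CPM in 5xFAD and 30.0 CPM in WT (log2 3.12 ± 0.43, SE, edgeR adjusted p = 0.000201), and the integrin gene Itgb2 1359 and 846 CPM (0.68 ± 0.15, adjusted p = 0.0173). Stab1, a scavenger receptor that takes up SPARC in macrophages, fell to 196 CPM in 5xFAD, against 415 CPM in WT (-1.08 ± 0.21, adjusted p = 0.00647). Itgb1, Itgb5 and Itgam did not pass, with log2 values of -0.01, 0.40 and 0.03. The list's median was 0.18. Of 13 olfactomedin-domain genes and BMP ligands, relatives and a partner family of Olfml3, 5 were tested, 0 passed in the same 4 comparisons, and the median in hippocampus was 0.16. In cerebellum 0 genes of any list passed by genotype.

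The genes whose levels were most like those of each member over the 22 libraries, among 4590 genes, are a description, since all share depth, plates and mice. Serpine2 was closest to Gnas, the stimulatory G protein gene (Pearson r 0.89), Ctsd, the cathepsin D gene (0.89), and Hexa, a lysosomal hexosaminidase gene (0.87). Ctsd averaged 25435 CPM in 5xFAD hippocampus, 16343 in 5xFAD cortex and 10859 in 5xFAD cerebellum, and 8407 to 8747 CPM in the WT groups. Timp2 was closest to Plxdc2 (0.82), the lipase gene Abhd12 (0.77) and the integrin gene Itgb5 (0.77). Sparc was closest to Fcrls (0.90), a microglial Fc receptor-like gene, Upk1b (0.88) and the lactate dehydrogenase gene Ldhb (0.86). Fcrls averaged 4563 CPM in 5xFAD hippocampus, 4739 in 5xFAD cortex and 2120.0 in 5xFAD cerebellum, and 4990.0, 4877 and 1721 CPM in WT hippocampus, cortex and cerebellum, the regional order of WT Sparc. Olfml3 was closest to Emc3 (0.74) and the proton channel gene Hvcn1 (0.73). Between members r ran from 0.36 for Sparc and Serpine2 to 0.70 for Timp2 and Serpine2.

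Per length, Sparc was the most abundant of the 4 in every group and Timp2 the least. Per kilobase of merged exons (3788 bases for Sparc, 6161 for Olfml3, 8287 for Serpine2 and 3896 for Timp2), the mean levels in 5xFAD hippocampus were 1006 CPM for Sparc, 727 for Olfml3, 260.0 for Serpine2 and 162 for Timp2. In WT hippocampus they were 1306, 686, 105 and 93.2 CPM per kilobase in the same order. The order of the middle pair depended on the transcript used. With the principal transcripts (2300, 5465, 2210 and 3709 bases), Serpine2 stood at 975 and Olfml3 at 820 CPM per kilobase in 5xFAD hippocampus, and at 395 and 774 in WT hippocampus.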

How the data were processed

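The deposited table held raw counts, whole reads per gene and well, with no normalization by the authors, for 48587 genes, 92 ERCC spike-ins and 1152 wells on 3 plates. The submitters' processing notes name STAR 2.5.2b, featureCounts 1.5.1 and the build GRCm38. Which annotation and strand setting were used is not stated in the sources at hand.

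In 96 columns, wells of plate columns 1 and 2, the counts also held those of wells further along the plate row. Subtracting these gave 0 negative values among 4664352, against 505427 with the next plate row. Of 1140 cells, 1041 had at least 500 genes, at least 10000 gene reads and at most 20% mitochondrial reads. Counts were summed per genotype, region and mouse number into 22 libraries, with ERCC left out.

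All libraries entered 1 fit with a term per group in edgeR 4.0.16 (R 4.3.3, TMM, filterByExpr, quasi-likelihood test). Adjustment was over every gene in a fit, and 0.05 was the threshold. The SE is the log2 fold change divided by the square root of F. Panel-positive and panel-negative cells were compared with mouse as a term, in mice with at least 5 cells of each class. The fit was tested on simulated data. p-values measure the spread between mice as numbered in the labels. Alternatives were DESeq2 1.42.0, limma 3.58.1 on cell means, other normalizations, filters and cell sets, a replicate block and leaving out each mouse. The replicate block was a mouse term in edgeR for regional and interaction comparisons. For genotype comparisons it was limma-voom with the mouse as a random block. The consensus correlation there was -0.0084, and the method changed along with the block.

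The series' design text says that regions came from the same mice, so numbers were taken to pair the regions of a genotype. Residuals of the 21 pairs correlated between -0.0387 and 0.055 over 4648 genes, with 0 pairs above 0.1.

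The members, the panel and the gene lists were chosen with earlier results of these data known. The text names the 4 members, the 3 genes with the highest Pearson r to each among 4590 genes, and of each list up to 4 genes past the threshold and those whose mean log2 CPM reached 8. Some items that these rules select are not reported here. Positions and lengths are from GENCODE M21 and promoters from RefSeq (GRCm38.p6), where all 4 members were found.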

Additional observations from a re-analysis of the deposited data

Results flagged for a closer look

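Of 32 sets of 4 mice tested for a mouse far from the rest, 3 were flagged. The share of cells with a Sparc read was 97.8% in 5xFAD cortex mouse 3, and the Olfml3 share of that mouse was 97.8% too. In WT hippocampus mouse 3 the Sparc share was 97.9%. In each set the other mice stood at 100%, and the distance is that of 1 cell without a read.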

How the results depend on the processing

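Serpine2 in 5xFAD against WT hippocampus, and Sparc in WT hippocampus against cerebellum and WT cerebellum against cortex, kept their calls in every alternative run. In 5xFAD hippocampus against cerebellum calls were lost with only the groups compared (log2 values of 0.53 for Sparc, 1.17 for Timp2 and 1.54 for Serpine2), with the replicate block (Sparc 0.53, Timp2 1.17), with limma on cell means (Sparc 0.78, Timp2 1.75), and for Timp2 without wells of plate columns 1 and 2 (1.16) and without wells with markers of other cells (1.13). Leaving out a mouse gave 0.47 to 0.62 for Sparc (calls lost between 0.47 and 0.58), 1.01 to 1.28 for Timp2 (lost between 1.01 and 1.24) and 1.30 to 1.98 for Serpine2 (lost between 1.30 and 1.39).

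Signs changed only for differences that were not called. In 5xFAD against WT cortex, Sparc had 0.26 with limma, and Timp2 -0.0059 with RLE and with DESeq2. In 5xFAD against WT hippocampus, Olfml3 had -0.057 in limma-voom with the mouse as a random block and -0.50 with limma on cell means. In 5xFAD against WT cerebellum, Serpine2 had 0.068 with no filter and 0.0082 without wells with markers of other cells. In hippocampus against cortex, 5xFAD Sparc had -0.045 with the replicate block and -0.78 with limma, WT Timp2 -0.000296 with RLE and -0.00041 with DESeq2, and WT Serpine2 -0.048 with RLE and with DESeq2, -0.034 without plate columns 1 and 2, -0.016 with only the groups compared, -0.017 with the replicate block and -0.018 with limma. Olfml3 in 5xFAD hippocampus against cerebellum had -0.27 with limma. In cells with 0 panel genes, 5xFAD against WT hippocampus gave -0.51 for Timp2 and -0.066 for Olfml3. Leaving out a mouse gave -0.087 to 0.11 for Timp2 in 5xFAD against WT cortex, -0.11 to 0.21 for Olfml3 in hippocampus and -0.42 to 0.26 for Serpine2 in cerebellum (signs changed between 0.052 and 0.26). In hippocampus against cortex it gave -0.0497 to 0.10 for 5xFAD Sparc (changed between -0.0497 and -0.034), -0.023 to 0.11 for WT Timp2 (changed between -0.023 and -0.0014) and -0.16 to 0.13 for WT Serpine2 (changed between -0.16 and -0.092). In panel-negative cortex cells it gave -0.10 to 0.028 for Sparc and -0.00051 to 0.16 for Serpine2.

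The number of genes called moved more, given here in the order no filter, DESeq2, limma on cell means. By genotype it was 190, 473 and 476 in cortex (51 as reported) and 327, 748 and 499 in hippocampus (176). In cerebellum it was 98 with no filter and 324 with DESeq2 (8). Hippocampus against cortex gave 41, 243 and 99 in 5xFAD mice (6) and 43, 301 and 22 in WT mice (0). Hippocampus against cerebellum gave 233, 710 and 311 in WT mice (65), and 107 with no filter and 349 with DESeq2 in 5xFAD mice (38). Cerebellum against cortex gave 77, 261 and 61 in 5xFAD mice (10) and 215, 549 and 146 in WT mice (48). The interaction of hippocampus with cerebellum gave 186, 531 and 99 (52), and that with cortex 76, 367 and 252 (8). With only the groups compared there were 25 genes in cortex and 0 in cerebellum by genotype, 0 in 5xFAD hippocampus against cortex, 5 and 13 in hippocampus against cerebellum of 5xFAD and WT mice, 13 in WT cerebellum against cortex, and 28 and 4 for the interactions. By genotype, limma-voom with the mouse as a random block gave 362 in hippocampus and 66 in cerebellum. The replicate block in edgeR gave 5 in WT hippocampus against cortex, and 4 and 26 in cerebellum against cortex of 5xFAD and WT mice. Without plate columns 1 and 2 there were 3 in cerebellum by genotype, 40 in WT hippocampus against cerebellum and 2 in 5xFAD cerebellum against cortex, and the last had 5 with RLE. Without wells with markers of other cells there were 3 in 5xFAD cerebellum against cortex and 0 for the interaction with cortex. Cells with 0 panel genes gave 159 in hippocampus (51) and 2 in cortex (8). Positive against negative cells gave 6 in hippocampus with no replicate block and 1 with at least 2 panel genes (0), and 42 in cortex with no replicate block and 10 with at least 4 panel genes (16).

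Leaving out a mouse gave 29 to 46 genes in cortex (moved up to 33), 113 to 140 in hippocampus (up to 115) and 1 to 10 in cerebellum (up to 2) by genotype, 3 to 5 and 0 to 2 in hippocampus against cortex of 5xFAD and WT mice, 7 to 38 (up to 18) and 39 to 76 (up to 41) in hippocampus against cerebellum, 2 to 9 (up to 4) in 5xFAD cerebellum against cortex, 18 to 64 (up to 34) and 0 to 12 (up to 3) for the interactions, 33 to 120 and 3 to 7 (up to 4) for panel-negative hippocampus and cortex cells, and 1 to 2 and 2 to 4 for positive against negative cells. The causes were not tested. Precision rests on 3 or 4 mice a group. Of the shares of cells with a read, recomputed at equal depth and with at least 10 reads required, 19 moved by more than the SD between mice and 29 did not.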
